A study of Danio rerio with 6 samples.

Results

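Protein synthesis runs on initiation factors, elongation factors and the aminoacyl-tRNA synthetases that charge transfer RNAs. Their genes were followed in zebrafish heart cells during regeneration. Members were every row of the expression table whose symbol begins with eif1 to eif6, eef1 or eef2. Rows that fit a pattern of aminoacyl-tRNA synthetase symbols were members too. The pattern leaves out larsa, larsb and tarsl2, and rows in capitals such as EARS2, EIF2AK4 and EIF1B. Of the 25089 rows 112 matched. They comprised 64 initiation factors (symbols beginning with eif), 15 elongation factors (eef), 19 cytosolic synthetases and 14 mitochondrial synthetases (symbols ending in 2). The 3 regenerating libraries came from the apex of the ventricle 5 days after part of it was resected, and the 3 uninjured libraries came from the apex of hearts that were not resected. Fish of both groups carried the Gata4:GFP reporter. In both groups the apexes were freed of any injury tissue, dissociated and sorted by flow cytometry. RNA of the sorted cells was amplified and sequenced. The labels call these cells cardiomyocytes and do not give the number of fish behind a library, whether fish were pooled, their age, or whether replicates came from separate animals. The p-values below therefore rest on differences among the 6 libraries themselves, part of which may be technical.

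Translation begins when eIF2 brings the initiator transfer RNA to the small ribosomal subunit, eIF3 binds that subunit and the eIF4 group recruits the capped messenger RNA. eEF1A then delivers each charged transfer RNA, eEF2 moves the ribosome along the message, and eIF5A helps the ribosome through sequences where peptide bonds form slowly. Each synthetase joins an amino acid to its own transfer RNA, and mitochondria use a separate nuclear-encoded set for the proteins they make themselves. Zebrafish keep pairs of many of these genes from the duplication of the teleost genome, so that 1 factor can be drawn from different copies.

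Levels are given as FPKM, a count of fragments divided by transcript length and by the library's total, which can be compared between genes of different length. The authors' values are relative to each library's total, and the 13 mitochondrially encoded protein genes took 10.3% to 18.8% of that total in regenerating libraries and 21.8% to 41.9% in uninjured libraries. Uninjured replicate 2 had the lowest of the uninjured shares, against 39.8% and 41.9% in the other uninjured libraries. Each library was therefore rescaled by the median ratio over 8924 genes, and values below are scaled FPKM unless stated otherwise. Without that scaling the median log2 change of all tested genes was 0.51, against 0.05 with it. Of 13 listed cardiomyocyte markers 12 were in the table, with a summed level of 3784 to 8400 in regenerating libraries and 5792 to 12459 in uninjured libraries, and none of them was at 0 in all libraries. Transcripts listed as markers of other cell types were also present. All 8 epicardial markers rose, with summed levels of 1343 to 1774 in regenerating libraries and 364 to 400 in uninjured libraries. Of 9 fibroblast markers 7 rose (sums of 1818 to 2152 in regenerating and 369 to 456 in uninjured libraries), of 8 endothelial and endocardial markers 4 rose (215 to 322 in regenerating and 116 to 165 in uninjured libraries), and of 6 red blood cell markers 3 rose (364 to 1045 in regenerating and 6.45 to 417 in uninjured libraries). Of 12 cardiomyocyte markers 4 fell. All 5 thrombocyte markers had changes below 0, and 2 of them fell (81.9 to 150 in regenerating and 223 to 407 in uninjured libraries). Of 8 macrophage markers 1 rose (45.8 to 134 in regenerating and 100 to 115 in uninjured libraries), and of 3 tested neutrophil markers none passed, also at an unadjusted p below 0.05 (4.10 to 6.33 in regenerating and 1.82 to 4.96 in uninjured libraries). In such bulk samples, fewer cells of a type and less RNA per cell cannot be told apart, and the part of the other cell types in the results below was not tested.

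The members furthest from 0 in each direction were single copies of duplicated factors. In regenerating cells the eIF5A gene eif5a2 rose 3.93-fold while eif5a did not pass the test, and the eEF2 gene eef2l2 fell to 0.220 of its uninjured level while eef2b did not pass. The cytosolic synthetases lay above the middle of all genes, with a median log2 change of 0.66 over the 19, against 0.05 over all 13319 tested genes. The median was -0.20 over the subunits of eIF3 other than eIF3j and 0.06 over the mitochondrial synthetases. On unscaled FPKM these 2 medians were 0.40 and 0.39, beside 1.19 over the cytosolic synthetases and 0.51 over all tested genes.

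Across the 4 classes, 99 of the 112 genes had an unscaled FPKM above 1 in at least 3 libraries and were tested. More genes were above 1 unscaled FPKM in regenerating libraries (13466 to 13723) than in uninjured libraries (11294 to 12207). A gene could therefore enter through regenerating libraries alone, and such a gene could hardly be called lower. Of these 11 rose, which is 11.1%, and 2 fell, at an adjusted p below 0.05 (limma, Benjamini-Hochberg over all tested genes). Of all tested genes 11.4% passed, 7.50% as higher and 3.95% as lower, so the share of members that rose was not far above that of all genes. The median log2 change of the members was 0.23, and 69 of the 99 were above 0. On the FPKM as deposited, without rescaling, 34 members rose and 2 fell, against 23.7% and 1.52% of all tested genes (25.3% in either direction), and the median member change was 0.75. The 86 members that did not pass included 11 with an unadjusted p below 0.05 and a higher level and 4 with a lower one. The remaining 13 members were too low to test, and they were eef1a1b, eef1a2, eef1e1, eef2a.2, eif3bb, eif4e1b and 7 mitochondrial synthetases. The number of calls moved with single libraries, among the members as among all genes. With every library 999 of all 13319 genes rose. Leaving out regenerating replicate 1 gave 2 members (367 of all genes), leaving out regenerating replicate 2 gave 2 (543) and leaving out regenerating replicate 3 gave 1 (524). Without uninjured replicate 1 there were 13 (1031 of all genes), without uninjured replicate 2 there were 7 (713) and without uninjured replicate 3 there were 5 (764).

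**Figure D1:**
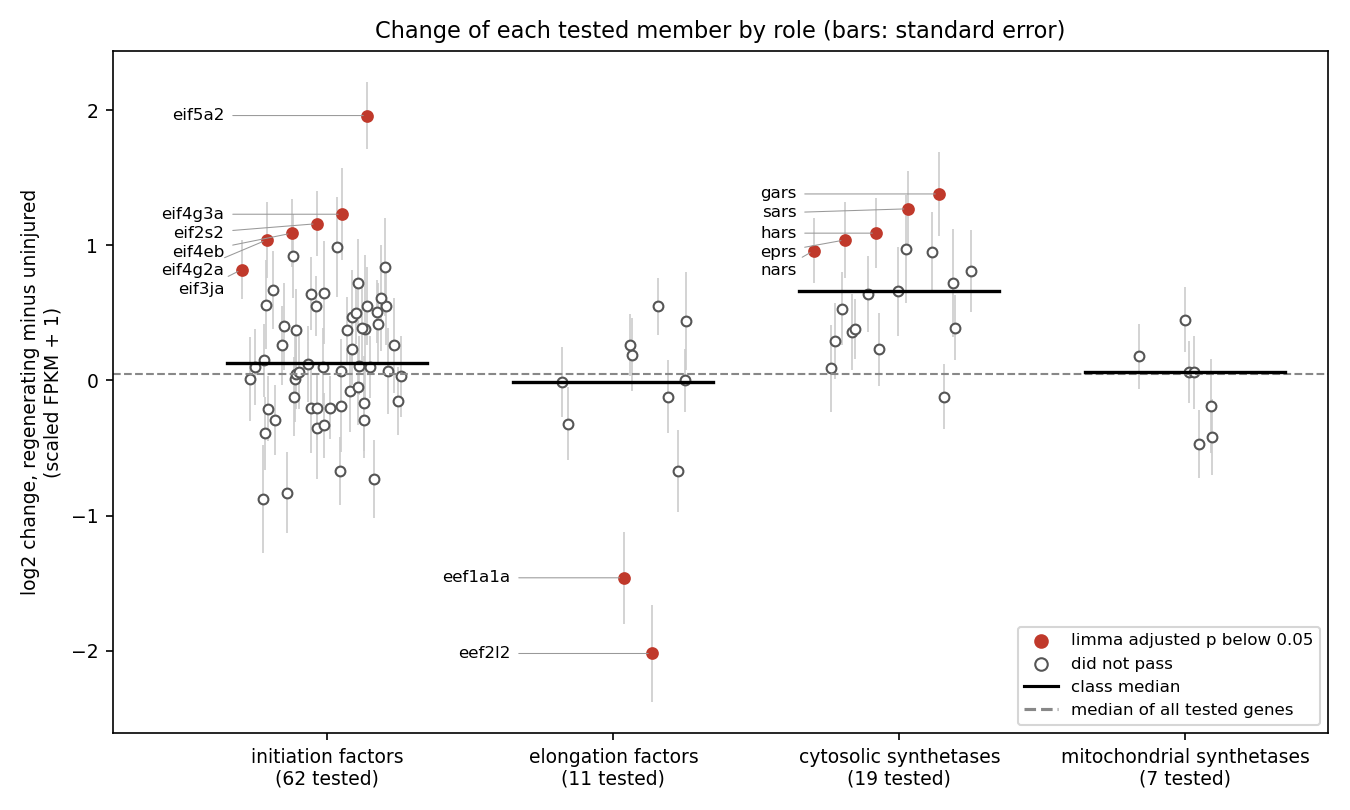
Log2 change (regenerating minus uninjured, on log2 of scaled FPKM + 1) of each tested member in 4 classes, with its standard error as a grey bar. Filled red points passed the limma test, black lines are class medians and the dashed line is the median of all tested genes at 0.05. The line for the cytosolic synthetases lies at 0.66, and those of the other classes lie between -0.01 and 0.13.

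eIF5A is a small factor that carries the modified amino acid hypusine, and 1 of its 2 copies passed the test. The gene names used here pair eif5a2 with EIF5A2, so these 2 genes need not be a pair from the teleost duplication. The level of eif5a2 was 231, 282 and 199 FPKM in the regenerating libraries, against 47.9, 63.9 and 69.2 FPKM in the uninjured libraries. Means were 237 ± 42.1 FPKM in regenerating and 60.4 ± 11.1 FPKM in uninjured libraries (SD, n = 3 each), and the log2 change was 1.96 ± 0.25 (SE, limma adjusted p = 0.00182). The groups did not overlap, and the lowest regenerating library stood well above the highest uninjured one. The other copy, eif5a, had 368, 347 and 432 FPKM in regenerating libraries, against 261, 530 and 476 FPKM in uninjured libraries, with a log2 change of -0.08 ± 0.30 (adjusted p = 0.885) that became 0.53 on unscaled FPKM. The groups overlapped fully for this copy, and uninjured replicate 1 was the lowest of all. As a share of the summed FPKM of both copies, eif5a2 made up 38.5%, 44.8% and 31.5% in regenerating libraries and 15.5%, 10.8% and 12.7% in uninjured libraries, a measure that no scaling between libraries can change. The mean shares were 38.3% ± 6.66 in regenerating and 13% ± 2.38 in uninjured libraries (SD, n = 3 each, exact permutation test, two-sided, p = 0.1, or 0.175 after Benjamini-Hochberg adjustment over 14 families). A p of 0.1 is the smallest that 3 against 3 libraries allow, and the 2 copies were compared with each other only through this share. The call for eif5a2 held in all 14 alternative settings, with adjusted p between 0.000524 and 0.0151. The enzymes that make hypusine did not pass the test (0 of 2 also at an unadjusted p below 0.05). For deoxyhypusine synthase, dhps, the log2 change was -0.36 (adjusted p = 0.496, and 0.08 on unscaled FPKM), and for deoxyhypusine hydroxylase, dohh, it was 0.26 (adjusted p = 0.654).

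**Figure D2:**
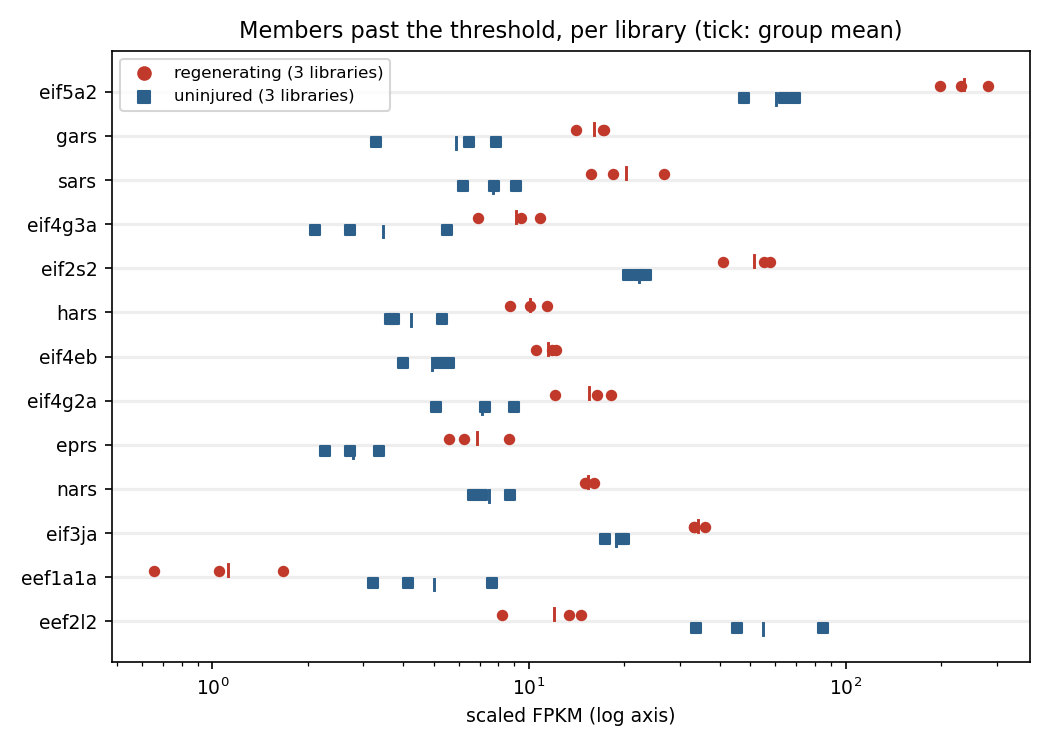
Scaled FPKM (log axis) of the 13 members that passed the test, in each of 3 regenerating libraries (red circles) and 3 uninjured libraries (blue squares), with ticks at the group means. For eif5a2 the regenerating points lie between 199 and 282 and the uninjured ones between 47.9 and 69.2, and for eef2l2 the regenerating points lie between 8.23 and 14.6 and the uninjured ones between 33.8 and 84.9.

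eIF2 has 3 subunits, and of their 4 genes the one for the beta subunit passed the test. The beta subunit gene eif2s2 had 41.0, 57.8 and 55.4 FPKM in regenerating libraries, against 20.6, 23.5 and 22.3 FPKM in uninjured libraries. It rose with a log2 change of 1.16 ± 0.24 (SE, adjusted p = 0.0142), with means of 51.4 ± 9.07 FPKM in regenerating and 22.2 ± 1.48 FPKM in uninjured libraries (SD, n = 3 each). The groups were well apart, with uninjured libraries close to each other. Its test was lost without regenerating replicate 2 or without regenerating replicate 3, with an adjusted p of up to 0.0578 over all settings. For the gamma subunit, eif2s3, levels were 28.1, 22.4 and 28.3 FPKM in regenerating libraries and 26.9, 32.1 and 31.7 FPKM in uninjured libraries (log2 change -0.20, adjusted p = 0.623, and 0.39 on unscaled FPKM). The alpha subunit, whose phosphorylation slows initiation, has a pair of genes, and their log2 changes were 0.37 for eif2s1a and 0.01 for eif2s1b (adjusted p = 0.480 and 0.993). Subunits that act in 1 complex therefore had unequal values, though the difference between them was not tested.

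None of the 5 genes of eIF2B, the exchange factor that recharges eIF2, passed the limma test, nor did any at an unadjusted p below 0.05, although all 5 changes were above 0, with a median of 0.37. The one with the smallest p was eif2b4, the delta subunit, with 4.83, 9.25 and 6.44 FPKM in regenerating libraries and 3.73, 4.38 and 4.52 FPKM in uninjured libraries (log2 change 0.55, adjusted p = 0.253). On unscaled FPKM eif2b4 passed (1.06, adjusted p = 0.0294). Of the kinases that phosphorylate eIF2 alpha, eif2ak3 (PERK, a sensor of unfolded protein in the endoplasmic reticulum) had 7.74, 7.85 and 13.7 FPKM in regenerating libraries and 5.01, 3.18 and 5.67 FPKM in uninjured libraries. These groups did not overlap, but the change of 0.92 missed the threshold (adjusted p = 0.0912) and passed on unscaled FPKM (1.45, adjusted p = 0.0101). The heme-sensing kinase eif2ak1 had a change of -0.05 (adjusted p = 0.924, and 0.39 on unscaled FPKM). The double-stranded RNA sensor eif2ak2 had a change of 0.61 (adjusted p = 0.345) and passed on unscaled FPKM (1.12, adjusted p = 0.0369). Factors that can deliver the initiator transfer RNA in place of eIF2 did not pass, with changes of 0.39 for eif2a and -0.29 for eif2d (0.22 on unscaled FPKM).

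In the eIF4 group, which binds the cap and unwinds the leader of the message, 3 of 18 tested genes rose, eif4eb, eif4g2a and eif4g3a. That is 16.7%, against 7.50% of all tested genes. The group's median log2 change was 0.40, and 16 of the 18 were above 0. Over all tested genes the median was 0.05, and 7101 of 13319 were above 0. On unscaled FPKM 7 of the 18 rose, beside 23.7% of all tested genes, and the group's median was 0.99. The level of eif4eb, 1 of the genes for the cap-binding protein, was 11.8, 10.5 and 12.2 FPKM in regenerating libraries, against 5.61, 3.99 and 5.19 FPKM in uninjured libraries (log2 change 1.09 ± 0.25, adjusted p = 0.0233). The other copies were not past the threshold. The most abundant of them, eif4e1c, had 28, 20.3 and 35.2 FPKM in regenerating libraries and 17.0, 27.6 and 12.5 FPKM in uninjured libraries (0.56, adjusted p = 0.304), and eif4ea had a change of -0.35 (adjusted p = 0.591, and 0.14 on unscaled FPKM). A cap-binding relative known in mammals as a repressor of initiation, eif4e2, had 4.93, 5.55 and 4.99 FPKM in regenerating libraries and 8.04, 10.1 and 8.45 FPKM in uninjured libraries. These values did not overlap, yet the change of -0.67 did not pass (adjusted p = 0.110, and -0.14 on unscaled FPKM). Other relatives had changes of the opposite sign. For eif4e2rs1, levels were 5.96, 7.19 and 6.35 FPKM in regenerating libraries and 3.54, 2.07 and 5.76 FPKM in uninjured libraries, without overlap. Its change of 0.72 did not pass (adjusted p = 0.192) but did on unscaled FPKM (1.23, adjusted p = 0.0156). The change of eif4e3 was 0.64 (adjusted p = 0.157, and 1.16 with adjusted p = 0.0134 on unscaled FPKM). All of eif4e2, eif4e2rs1 and eif4e3 were chosen after their values were seen.

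The scaffold eIF4G joins the cap-binding protein to the ribosome, and 1 copy in each of 2 pairs rose. The level of eif4g3a was 9.47, 6.92 and 10.8 FPKM in regenerating libraries, against 2.72, 2.11 and 5.52 FPKM in uninjured libraries (1.23 ± 0.34, adjusted p = 0.0428). For eif4g2a, a copy of the eIF4G relative that lacks the site for the cap-binding protein, levels were 16.4, 12.1 and 18.2 FPKM in regenerating libraries and 7.25, 8.94 and 5.09 FPKM in uninjured libraries (1.04 ± 0.28, adjusted p = 0.0423). The paired copies stayed below the threshold, with 0.38 ± 0.55 for eif4g3b and 0.03 ± 0.30 for eif4g2b (adjusted p = 0.703 and 0.957). Uninjured replicate 3 held 38.7 FPKM of eif4g3b, far above the 8.31 and 6.49 FPKM of the other uninjured libraries, while the regenerating libraries had 22.8, 12.8 and 17.4 FPKM. Without uninjured replicate 3 its change was 1.13. The main scaffold gene eif4g1a had a change of 0.42 (adjusted p = 0.401).

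No gene of the helicase eIF4A or its cofactors passed the test. The most abundant gene of the group, eif4a1a, had 137, 73.8 and 94.9 FPKM in regenerating libraries and 79.3, 94.2 and 94.7 FPKM in uninjured libraries (0.15, adjusted p = 0.770), and its pair eif4a1b had a change of 0.10. Of the helicase cofactor eIF4B, the minor copy eif4ba had a change of 0.67 (adjusted p = 0.169) and the major copy eif4bb one of 0.12 (adjusted p = 0.809). On unscaled FPKM eif4ba passed (1.16, adjusted p = 0.0268), as did the cofactor gene eif4h (1.08, adjusted p = 0.0177), while eif4bb did not (0.71, adjusted p = 0.150). The 3 calls of the group were sensitive to single libraries. The test of eif4eb was lost without any 1 of the regenerating libraries or without uninjured replicate 2, that of eif4g2a without any 1 library other than uninjured replicate 2, and that of eif4g3a without any 1 library other than uninjured replicate 3. Among other settings, the tests of eif4g2a and eif4g3a were also lost with no filter on low genes and with the total of genes outside the mitochondrial genome as the scale, and that of eif4g3a with upper-quartile scaling.

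The eIF4E-binding proteins of the eif4ebp genes hold the cap-binding protein back until the kinase mTORC1 phosphorylates them. Together with eif4enif1, whose product binds eIF4E but is not of that family, 5 genes were tested. None passed with limma (1 was higher at an unadjusted p below 0.05). The change of eif4enif1 was 0.01 (adjusted p = 0.995, and 0.44 on unscaled FPKM). The most abundant, eif4ebp1, had 36.2, 59.3 and 32.7 FPKM in regenerating libraries and 49.2, 68 and 31.3 FPKM in uninjured libraries (-0.19, adjusted p = 0.761, and 0.41 on unscaled FPKM). The level of eif4ebp2 was 29.8, 27 and 33.6 FPKM in regenerating libraries and 20.6, 18.8 and 21.3 FPKM in uninjured libraries, which did not overlap (0.55, adjusted p = 0.152, and 1.14 with adjusted p = 0.0181 on unscaled FPKM). The copies eif4ebp3 and eif4ebp3l had changes of -0.17 and -0.88 (adjusted p = 0.798 and 0.195), which were 0.28 and -0.30 on unscaled FPKM.

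eIF3 is the largest initiation factor, and 1 of its 16 tested genes rose (6.25%, against 7.50% of all tested genes). Among the 14 tested subunit genes other than those of eIF3j, a loosely bound subunit, none passed the test in either direction (0 were higher and 2 lower at an unadjusted p below 0.05). Their median log2 change was -0.20 with 9 of 14 below 0, and on unscaled FPKM it was 0.40 with 12 of 14 above 0, so the direction of the group depended on the scaling. Over all 16 tested eIF3 genes the median was -0.16 (0.44 on unscaled FPKM). The split of eIF3j from the other subunits was not among the planned groups. The most abundant, eif3f, had 89.7, 73.6 and 71.6 FPKM in regenerating libraries and 81.1, 123 and 94.9 FPKM in uninjured libraries (-0.33, adjusted p = 0.419, and 0.28 on unscaled FPKM). The eIF3j gene eif3ja rose, with 36, 33.2 and 33.1 FPKM in regenerating libraries, against 19.6, 17.4 and 19.9 FPKM in uninjured libraries (0.82 ± 0.22, adjusted p = 0.0400). Its levels were tight within each group, but the call was lost in 9 of 14 alternative settings, among them any 1 left-out library other than uninjured replicate 1, with adjusted p of up to 0.157. Its pair eif3jb had a change of 0.40 (adjusted p = 0.458). The copies of eIF3h had changes of opposite sign. The level of eif3hb was 3.63, 6.13 and 8.01 FPKM in regenerating libraries and 10.2, 11.3 and 11.0 FPKM in uninjured libraries, without overlap (-0.83, adjusted p = 0.106), while eif3ha had a change of 0.26 (adjusted p = 0.602).

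Much of the spread of eIF3 lay between uninjured libraries. Of these 14 genes, uninjured replicate 2 was the highest uninjured library in 13 and uninjured replicate 1 the lowest in 13. The median of uninjured replicate 2 minus the mean of the other uninjured libraries was 0.49 on the log2 scale for eIF3 and -0.02 over all tested genes. For the cytosolic synthetases the same median was -0.25, and uninjured replicate 1 was the highest uninjured library in 14 of 19. The lowest was uninjured replicate 2 in 9 of them and uninjured replicate 3 in 8. Uninjured replicate 2 also had the lowest mitochondrial share of the uninjured libraries, and the part of that share in the order of the uninjured libraries was not tested.

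**Figure D3:**
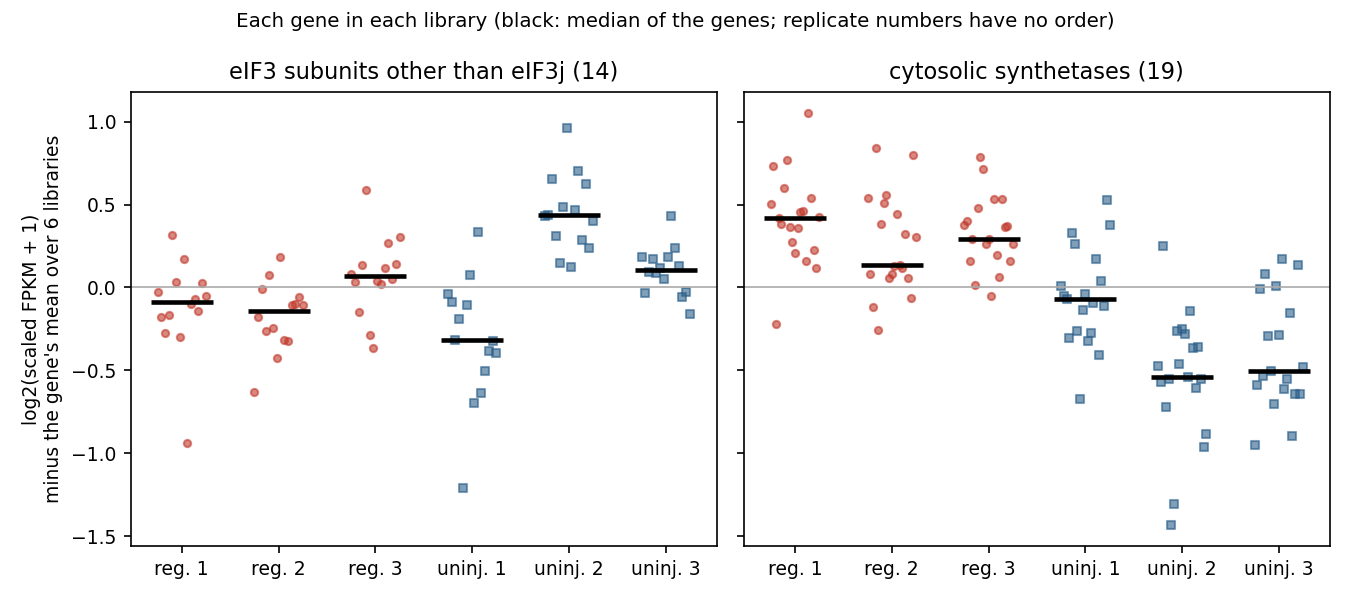
Each gene's log2(scaled FPKM + 1) in each library minus its mean over the 6 libraries, for 14 eIF3 subunit genes (left) and 19 cytosolic synthetases (right), with black lines at the median of the genes. Uninjured replicate 2 is the highest uninjured library for 13 of the 14 eIF3 genes, whereas the medians of the synthetases lie above 0 in the regenerating libraries and below 0 in the uninjured ones.

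The remaining initiation factors did not pass the test (2 of 7 were higher at an unadjusted p below 0.05). The most abundant initiation gene, eif1b, whose identifier the gene names used here pair with EIF1, the factor that guards start codon choice, had 481, 381 and 395 FPKM in regenerating libraries and 365, 565 and 479 FPKM in uninjured libraries (-0.15, adjusted p = 0.747, and 0.46 on unscaled FPKM). A separate row with the symbol EIF1B in capitals, which the symbol pattern does not take in, had 28, 31.8 and 30.2 FPKM in regenerating libraries and 16.7, 11.9 and 12 FPKM in uninjured libraries, and rose by a log2 change of 1.11 (adjusted p = 0.0184). Reads may be shared between such similar genes. The rows EARS2 and EIF2AK4, also in capitals and outside the pattern, were too low to test. The eIF1A genes eif1axa and eif1axb had changes of 0.55 and 0.50 (adjusted p = 0.253 and 0.197), and eif1ad had 0.99 (adjusted p = 0.120). The changes were 0.11 for eif5, which triggers GTP hydrolysis on eIF2, and 0.84 for eif5b, which joins the ribosomal subunits (adjusted p = 0.794 and 0.166). For eif6, which keeps the large subunit apart until it is needed, the change was 0.07 (adjusted p = 0.915). In all, 6 of 62 tested initiation factors rose (9.68%, against 7.50% of all tested genes) and none fell at an adjusted p below 0.05. At an unadjusted p below 0.05, 12 were higher and 3 lower, beside 2215 higher and 1346 lower of all 13319 genes. On unscaled FPKM 18 rose and 0 fell, beside 23.7% and 1.52% of all tested genes. With 1 library left out, the count of rising initiation factors was 2 without regenerating replicate 1, 1 without either of the other regenerating libraries and 4 without any 1 of the uninjured libraries. The calls over all genes in these fits are given above.

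Elongation factors include the most abundant member, and 2 copies fell. The level of eef2l2, 1 of 4 genes for the translocation factor eEF2, was 8.23, 13.4 and 14.6 FPKM in regenerating libraries, against 45.3, 84.9 and 33.8 FPKM in uninjured libraries. Means were 12 ± 3.36 FPKM in regenerating and 54.7 ± 26.8 FPKM in uninjured libraries (SD, n = 3 each), and the log2 change was -2.02 ± 0.36 (adjusted p = 0.00855, and -1.44 with adjusted p = 0.0327 on unscaled FPKM). The groups were far apart, although the uninjured libraries varied widely. The call held in all 14 alternative settings, with adjusted p between 0.00699 and 0.0442. The major copy eef2b had 122, 130 and 131 FPKM in regenerating libraries and 84.1, 91.6 and 85.7 FPKM in uninjured libraries. These did not overlap, but the change of 0.55 ± 0.21 was short of the threshold (adjusted p = 0.127) and passed on unscaled FPKM (1.15, adjusted p = 0.0191). Summed over the 4 copies, eEF2 stood at 146 ± 5.34 scaled FPKM in regenerating libraries and 146 ± 30.1 scaled FPKM in uninjured libraries, a difference smaller than the spread between libraries. On unscaled FPKM the mean of eef2b was 160 in regenerating and 72.2 in uninjured libraries. That of eef2l2 was 15 in regenerating and 47.8 in uninjured libraries, so the equal sums depended on the scaling. The share of eef2l2 in the sum of the 4 copies was 5.88%, 9.13% and 9.66% in regenerating libraries and 34.1%, 47.1% and 27.3% in uninjured libraries (exact permutation test, two-sided, p = 0.1, or 0.175 after adjustment over 14 families). The copies share sequence, so reads may have been split between them by the authors' counting, and their separate levels are uncertain to that extent. Among other pairs, eif4ba took 18.5% ± 1.13 of the eIF4B sum in regenerating libraries and 12.3% ± 1.22 in uninjured libraries (exact permutation test, two-sided, p = 0.1), whereas eif4a1a took 63.8% ± 6.06 of the eIF4A1 sum in regenerating and 63.2% ± 4.25 in uninjured libraries (p = 0.9, exact).

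**Figure D4:**
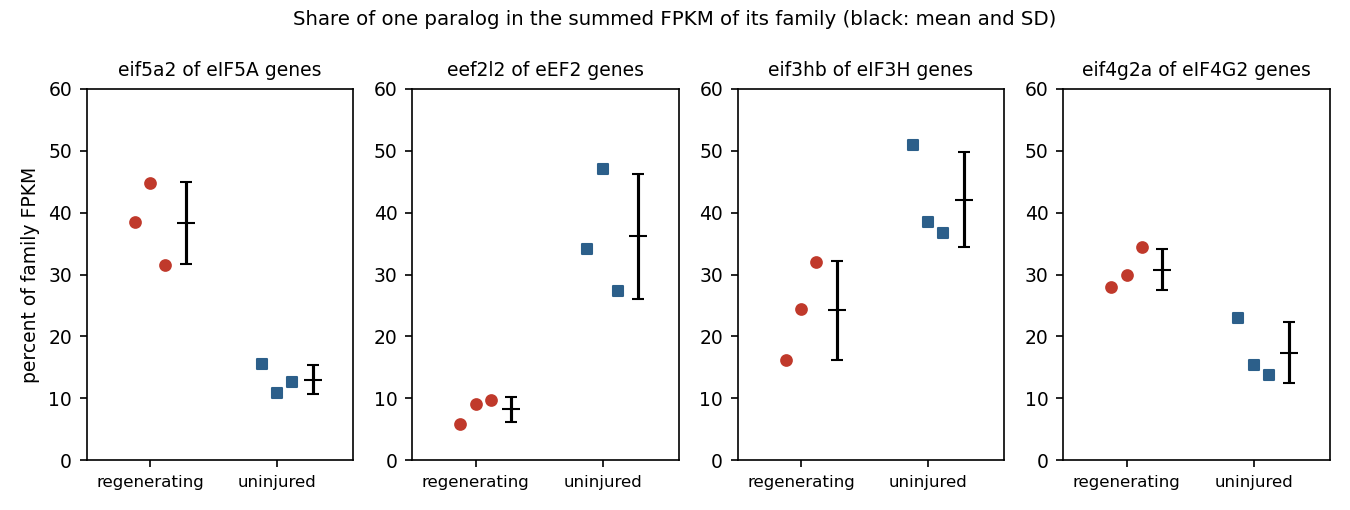
Percent of the summed FPKM of a gene family taken by 1 copy in each of 3 regenerating libraries (red circles) and 3 uninjured libraries (blue squares), with the mean and SD in black. The families shown are a part of the 14 compared, each with an exact permutation p of 0.1 (0.175 after adjustment over 14 families). Of those not shown, shares overlapped for eIF4E, eIF3j, eIF2 alpha, eIF1A, eIF4A1 and eIF4EBP3, and did not for eEF1A, eIF4G3, eIF3E and eIF4B. The gene eif3hb did not pass the limma test (adjusted p = 0.106). The share of eif5a2 was 38.3% ± 6.66 in regenerating and 13% ± 2.38 in uninjured libraries, that of eef2l2 8.22% ± 2.05 in regenerating and 36.2% ± 10.1 in uninjured, that of eif3hb 24.2% ± 7.96 in regenerating and 42.1% ± 7.69 in uninjured, and that of eif4g2a 30.8% ± 3.32 in regenerating and 17.4% ± 4.95 in uninjured libraries.

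Among the eEF1A genes, whose product delivers charged transfer RNAs, the minor copy eef1a1a fell. It had 0.653, 1.05 and 1.67 FPKM in regenerating libraries, against 3.21, 4.14 and 7.67 FPKM in uninjured libraries (-1.46 ± 0.34, adjusted p = 0.0248). The call was lost without regenerating replicate 1 or 2, without uninjured replicate 3 and with no filter on low genes, with adjusted p of up to 0.114. This copy was a small part of the family, 0.117% ± 0.0483 of its FPKM in regenerating libraries and 0.650% ± 0.362 in uninjured libraries (SD, n = 3 each). The family was almost wholly eef1a1l2 (paired with eef1a1l1 in the gene names used here), the most abundant of all members, with 848, 1008 and 978 FPKM in regenerating libraries and 829, 819 and 713 FPKM in uninjured libraries (0.26 ± 0.23, adjusted p = 0.501). The level of eef1a2, known in mammals as the copy of adult muscle and neurons, was at most 0.0976 FPKM in any library, close to the floor that the deposited values give to genes without reads. The subunits of eEF1B, which exchange the nucleotide on eEF1A, did not pass, also at an unadjusted p below 0.05, with a median change of -0.01 over 4 tested genes (0.61 on unscaled FPKM). The largest of these was eef1b2, with 294, 277 and 340 FPKM in regenerating libraries and 275, 351 and 290 FPKM in uninjured libraries.

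The kinase that inhibits eEF2, eef2k, had a change of -0.12 (adjusted p = 0.809, and 0.42 on unscaled FPKM), and the methyltransferase eef2kmt one of -0.67 (adjusted p = 0.185). The enzymes that build diphthamide, the modified histidine of eEF2, did not pass either (0 of 6 at an unadjusted p below 0.05), with a median of 0.35. All 6 changes were above 0. On unscaled FPKM 2 of the 6 rose, beside 23.7% of all tested genes, with a median of 0.75. In all, 2 of 11 tested elongation factors fell and 0 rose, beside 3.95% and 7.50% of all tested genes. At an unadjusted p below 0.05, 1 was higher and 3 were lower, beside 2215 higher and 1346 lower of all 13319 genes. The median change of the elongation factors was -0.01, and it was 0.60 on unscaled FPKM. There 1 rose and 2 fell, beside 23.7% and 1.52% of all tested genes. One of the 2 calls, eef1a1a, was lost when single libraries were left out, as given above.

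Most cytosolic synthetases had higher values in regenerating cells. Of 19 tested, 18 changes were above 0, 12 had groups that did not overlap with the regenerating libraries higher (a pattern seen in 19.1% of all tested genes) and 5 rose at an adjusted p below 0.05 (26.3%, against 7.50% of all tested genes). None fell, also at an unadjusted p below 0.05, where 9 of 19 were higher, beside 2215 of all 13319 genes. The 5 were gars, sars, hars, eprs and nars, of which eprs and nars were named after their values were seen. On unscaled FPKM 14 of 19 rose, beside 23.7% of all tested genes, with a median change of 1.19 over the 19.

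The glycyl-tRNA synthetase gene gars, which in humans encodes both the cytosolic and the mitochondrial enzyme, had 17.1, 14.1 and 17.3 FPKM in regenerating libraries, against 7.85, 3.29 and 6.47 FPKM in uninjured libraries. It rose with a log2 change of 1.38 ± 0.31 (adjusted p = 0.0218), means being 16.1 ± 1.78 FPKM in regenerating and 5.87 ± 2.34 FPKM in uninjured libraries (SD, n = 3 each). The seryl-tRNA synthetase gene sars had 26.8, 15.7 and 18.4 FPKM in regenerating libraries, against 9.10, 7.78 and 6.18 FPKM in uninjured libraries (1.27 ± 0.28, adjusted p = 0.0194). In both genes every regenerating library was above every uninjured one. For hars, the histidyl enzyme, levels were 8.74, 10.1 and 11.4 FPKM in regenerating libraries and 3.74, 5.30 and 3.64 FPKM in uninjured libraries (1.09 ± 0.26, adjusted p = 0.0270). The gene names used here pair the identifier of hars with HARS2, so its compartment is uncertain. The bifunctional glutamyl-prolyl enzyme eprs had 6.22, 8.67 and 5.61 FPKM in regenerating libraries and 3.37, 2.27 and 2.73 FPKM in uninjured libraries (1.04 ± 0.28, adjusted p = 0.0410). The asparaginyl enzyme nars had 15.1, 15.0 and 16.0 FPKM in regenerating libraries and 8.71, 7.09 and 6.68 FPKM in uninjured libraries (0.96 ± 0.24, adjusted p = 0.0301).

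These calls were lost under several settings. With no filter on low genes, 0 of 19 passed, where 483 of all 25056 genes rose. With 1 library left out the count was 0 when regenerating replicate 1 or 3 was left out, 1 when regenerating replicate 2 was, 9 without uninjured replicate 1, 3 without uninjured replicate 2 and 1 without uninjured replicate 3. Calls over all genes were also fewer in all of these fits except the one without uninjured replicate 1, with the numbers given above. The median change of the 19 stayed between 0.50 and 0.99 in the same fits. Among other settings, eprs and nars lost the call with the total of genes outside the mitochondrial genome as the scale. The call of eprs was also lost with upper-quartile scaling. With 1 library left out, single genes lost the call as follows. For gars it was lost without any 1 regenerating library, for sars without regenerating replicate 1, regenerating replicate 3 or uninjured replicate 3, for hars without any 1 regenerating library or uninjured replicate 3, and for eprs and nars without any 1 library other than uninjured replicate 1.

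Other cytosolic synthetases had values in the same direction that were short of the threshold. The alanyl enzyme aars had 9.92, 10.2 and 9.03 FPKM in regenerating libraries and 6.76, 4.55 and 2.99 FPKM in uninjured libraries, without overlap (0.95, adjusted p = 0.0700). The alpha and beta subunits of the phenylalanyl enzyme had changes of 0.09 for farsa and 0.97 for farsb (adjusted p = 0.878 and 0.155). In farsb, uninjured replicate 2 was low at 1.44 FPKM, against 6.92 and 4.38 FPKM in the other uninjured libraries. The only change below 0 was that of the aspartyl enzyme dars, with 18.0, 19.4 and 23.7 FPKM in regenerating libraries and 20.1, 25.3 and 21.0 FPKM in uninjured libraries (-0.12, adjusted p = 0.788, and 0.47 on unscaled FPKM). The lysyl enzyme kars, which in humans also serves both compartments, had the highest mean level beside dars, with 24.3, 22.2 and 25.8 FPKM in regenerating libraries and 20.3, 17.4 and 17.0 FPKM in uninjured libraries (0.38, adjusted p = 0.308). Genes in these sentences were chosen after their values were seen, except dars.

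Mitochondrial synthetases were low in both groups. Only 7 of 14 passed the filter, with mean levels of at most 4.28 FPKM, and none passed the test in either direction (0 at an unadjusted p below 0.05). Their median change was 0.06, and 1, iars2, rose on unscaled FPKM, beside 23.7% of all tested genes. The isoleucyl enzyme iars2 had the highest change, with 1.52, 0.956 and 1.12 FPKM in regenerating libraries and 0.975, 0.380 and 0.496 FPKM in uninjured libraries (0.45, adjusted p = 0.259). The most abundant, cars2, had 3.42, 4.22 and 3.63 FPKM in regenerating libraries and 7.35, 2.33 and 4.75 FPKM in uninjured libraries (-0.19, adjusted p = 0.767, and 0.31 on unscaled FPKM). Cytosolic and mitochondrial genes for the same amino acid can be set side by side. The log2 changes were 1.27 for sars and 0.06 for sars2, 0.96 for nars and -0.42 for nars2, 0.81 for cars and -0.19 for cars2, and 0.23 for rars and 0.06 for rars2. The phenylalanyl genes farsa and farsb had 0.09 and 0.97, and fars2 had -0.47, while the isoleucyl genes were close, with 0.39 for iars and 0.45 for iars2. Both isoleucyl genes were above 1 unscaled FPKM in regenerating libraries only, so they entered the test through the group where they were higher. The difference between the classes was not tested, and log2(FPKM + 1) understates the change of genes as low as these.

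**Figure D5:**
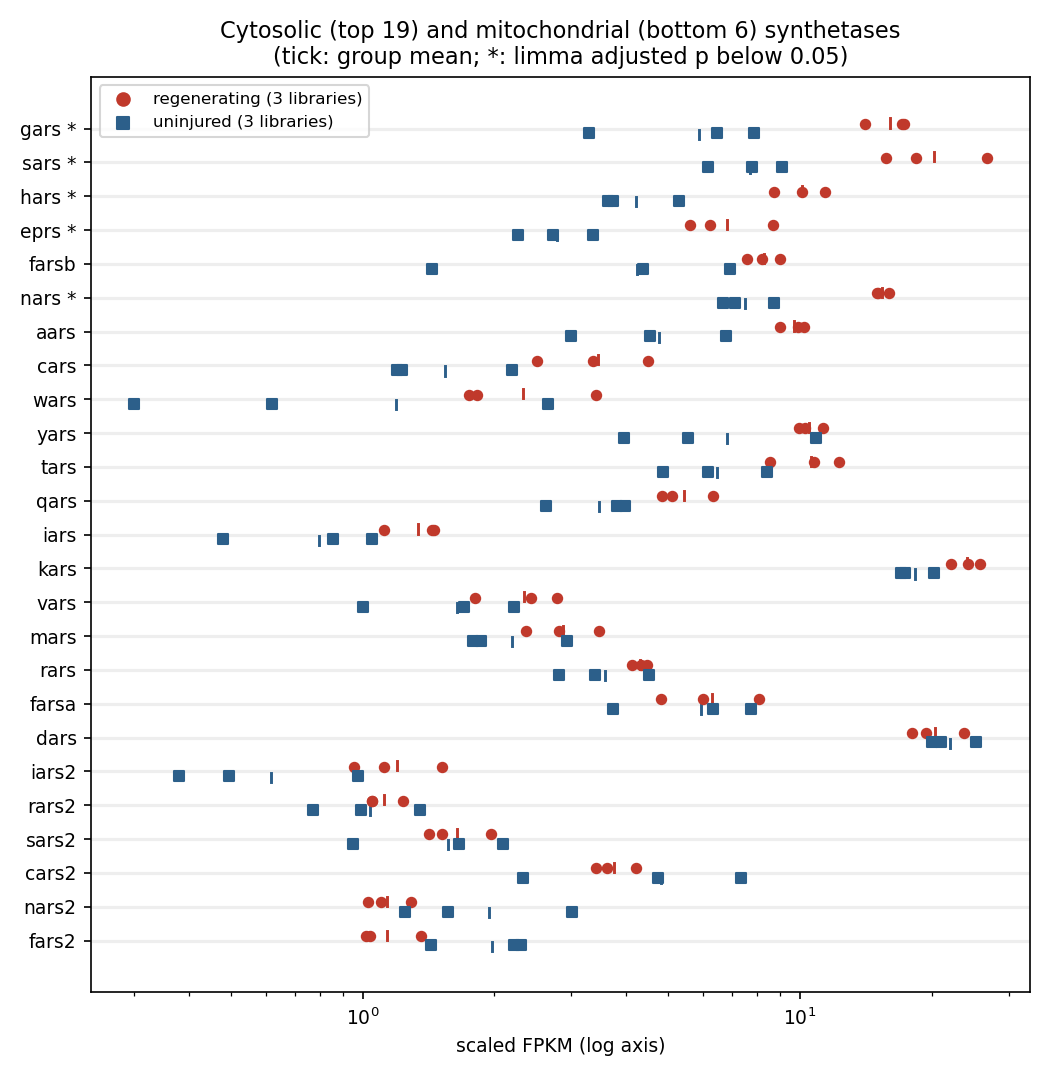
Scaled FPKM (log axis) of 19 cytosolic (top) and 6 mitochondrial (bottom) synthetase genes in 3 regenerating libraries (red circles) and 3 uninjured libraries (blue squares), with ticks at the group means and asterisks for the 5 genes past the limma threshold. Red points lie to the right of all blue ones in 12 cytosolic genes and in none of the mitochondrial genes shown. That pattern was seen in 19.1% of all tested genes. Genes too low to test are not shown, and among them pars2 had the pattern.

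Other parts of the translation pathway were read from lists of their genes. Their counts stand beside 7.50% of all tested genes that rose and 3.95% that fell. At an unadjusted p below 0.05, 2215 of all 13319 genes were higher, and on unscaled FPKM 23.7% rose. Of 9 tested synthetase genes outside the symbol pattern and scaffold or quality-control genes, 1 rose, dtd2, a deacylase that clears mischarged transfer RNAs, with 3.42, 2.81 and 1.53 FPKM in regenerating libraries and 0.895, 0.240 and 0.262 FPKM in uninjured libraries (1.28, adjusted p = 0.0244). Before scaling, dtd2 was above 1 FPKM in regenerating libraries only, so it entered the test through the group where it was high. The leucyl enzyme larsa had a change of 1.04 (adjusted p = 0.0604). None of 6 termination and recycling factors passed (2 were higher at an unadjusted p below 0.05), with a median of 0.54 and the smallest p in gspt1l (eRF3, 0.68, adjusted p = 0.147) and abce1 (ribosome recycling, 0.72, adjusted p = 0.177). On unscaled FPKM 4 of them rose. Of 5 poly(A)-binding proteins and adaptors 1 fell. It was pabpc4, with 5.21, 5.70 and 12.8 FPKM in regenerating libraries and 34.7, 46.2 and 18.0 FPKM in uninjured libraries (-1.93 ± 0.41, adjusted p = 0.0167), and it was just short of the threshold on unscaled FPKM (-1.37, adjusted p = 0.0543). The abundant pabpc1b had 64.4, 70.1 and 68.3 FPKM in regenerating libraries and 86.7, 80.5 and 58.1 FPKM in uninjured libraries (-0.13, adjusted p = 0.767, and 0.48 on unscaled FPKM).

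Mitochondrial translation factors did not pass the test in 8 of 8 cases (2 were higher at an unadjusted p below 0.05), with a median of 0.32. On unscaled FPKM 4 of the 8 rose, beside 23.7% of all tested genes. The elongation factor tufm had the smallest p, with 8.65, 6.54 and 10 FPKM in regenerating libraries and 2.74, 3.36 and 6.28 FPKM in uninjured libraries (0.92, adjusted p = 0.0989). Of 16 tested genes of the pathway of mTORC1, the kinase that frees the cap-binding protein, none passed, with a median of 0.15. The list mixes parts of the kinase complex with its regulators and targets, so the median is not a level of the kinase. At an unadjusted p below 0.05, 2 of the 16 were higher, beside 2215 of all 13319 genes. On unscaled FPKM 4 of the 16 rose, beside 23.7% of all tested genes. The smallest p belonged to the lysosomal anchor genes lamtor2 and lamtor5 (0.99 and 1.06, adjusted p = 0.0754 and 0.0794).

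Targets of the integrated stress response, the program set off by phosphorylated eIF2 alpha, were mixed. Of 21 tested, 3 rose (14.3%) and 1 fell, beside 7.50% and 3.95% of all tested genes, with a median of 0.03. Those that rose were asns (asparagine synthetase, 4.35, 3.25 and 3.28 FPKM in regenerating libraries, 0.908, 0.640 and 1.72 FPKM in uninjured libraries, log2 change 1.17, adjusted p = 0.0291), phgdh (the first enzyme of serine synthesis, 0.90, adjusted p = 0.0317) and psat1 (the next enzyme, 1.17, adjusted p = 0.0343). The levels of phgdh were low, with 1.58, 1.41 and 1.02 FPKM in regenerating libraries and 0.214, 0.07 and 0.482 FPKM in uninjured libraries. The lowest of these is near the floor for genes without reads. Like dtd2, phgdh was above 1 unscaled FPKM in regenerating libraries only and entered the test through them. The last enzyme of serine synthesis, psph, had a change of -0.02 (adjusted p = 0.968, and 0.51 on unscaled FPKM). The one that fell was chac1, a glutathione-degrading enzyme, with 88.8, 96.2 and 75.1 FPKM in regenerating libraries and 167, 147 and 173 FPKM in uninjured libraries (-0.90, adjusted p = 0.0288). On unscaled FPKM its change was -0.29 and did not pass (adjusted p = 0.481). The central transcription factor genes atf4a and atf4b had changes of 0.05 and -0.32, the second of which became 0.29 on unscaled FPKM.

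The authors' deposited table holds its own test of the same libraries, with a call rule of adjusted p below 0.05 that 9.46% of its 21504 tested genes met, 4.84% as higher and 4.62% as lower. By the authors' deposited values, 10 members were higher and 2 lower. The 2 lower ones were eef2l2 and eef1a1a (authors' deposited table, log2 fold changes -2.25 and -2.67, adjusted p 6.79e-08 and 0.000588). The authors' deposited table gave eif5a2 a log2 fold change of 1.49 (adjusted p 2.9e-06), eif2s2 1.05 (adjusted p 0.00486), gars 1.28 (adjusted p 0.00482) and nars 0.88 (adjusted p 0.0297). Of the 11 members that rose in the limma fit, eif4eb and eif3ja were short of the threshold in the authors' deposited table (adjusted p 0.0511 and 0.0575), while yars, the tyrosyl enzyme, passed there (log2 fold change 1.22, adjusted p 0.046) and on unscaled FPKM in limma (1.21, adjusted p = 0.0229), but not on scaled FPKM.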

How the data were processed

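RNA from sorted ventricular cells was sequenced in 3 regenerating and 3 uninjured libraries, grouped by their titles. The submitters' processing notes name STAR 2.5.3a, RSEM 1.3.0, DESeq2, R 3.3.3 and GRCz10 as the build. The authors deposited log2 FPKM for 25089 genes, per the file headers. Taken back to the linear scale, 100% of them were whole steps of 0.01 FPKM within 0.001, and none was below 0.1, so an offset of 0.1 was subtracted. The deposited values keep a floor above 0 for genes without reads, about 0.145 to 0.208 FPKM at a length of 1 kb. The deposited table also holds the authors' mean normalised count (a signal value), p-value, adjusted p and log2 fold change, and a transcript length, per the file headers. No read totals were used here, so depth is unknown and no counting interval is given.

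FPKM were scaled by median ratios over 8924 genes above 1 unscaled FPKM in all libraries. Genes above 1 unscaled FPKM in at least 3 libraries (13319) were tested with limma 3.58.1 in R 4.3.3 on log2(scaled FPKM + 1), with a trend and group as the only term. P-values are two-sided and adjusted by Benjamini-Hochberg over all tested genes, with a threshold of 0.05. Fold changes on this scale understate the change of low genes. The design had assumed counts, and a test for FPKM replaced it. The steps were tested on simulated data. Shares of gene copies were compared by exact permutation tests in scipy 1.17.1. Alternatives were other scalings, pseudocounts of 0.1 and 0.5, no filter, a replicate block and each library left out in turn.

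Named genes were, per sub-role, the one with the smallest p and the most abundant, up to 3 risers and 3 fallers per class, pairs of copies, and up to 2 genes per pathway list by smallest p. Members, lists and this rule were chosen with earlier results of these data known, and genes outside the rule were named after their values were seen. Roles are background knowledge from vertebrates. No coordinates or sequences are given. The values of 1 member are not reported here.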

Additional observations from a re-analysis of the deposited data

How the results depend on the processing

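The number of all members that rose was 11, against 34 without scaling, 6 when scaled to the total of genes outside the mitochondrial genome, 3 with no filter on low genes (25056 genes tested), 7 with a replicate block and 1 to 13 with 1 library left out. The number that fell was 2, against 1 with no filter and 1 to 2 with 1 library left out. Over all genes 999 rose, against 3161 without scaling, 796 with the total outside the mitochondrial genome and 483 with no filter. That count was 917 with a replicate block and 367 to 1031 with 1 library left out. Of all genes 526 fell, against 207 with no filter and 145 to 569 with 1 library left out. Rising initiation factors numbered 6, against 18 without scaling, 3 with the total outside the mitochondrial genome, 3 with no filter and 1 to 4 with 1 library left out. Elongation factors had 2 that fell, against 1 with no filter and 1 to 2 with 1 library left out, and 0 that rose, against 1 without scaling. Rising cytosolic synthetases numbered 5, against 14 without scaling, 3 with the total outside the mitochondrial genome, 0 with no filter, 3 with a replicate block and 0 to 9 with 1 library left out, and 1 mitochondrial synthetase rose without scaling. Without scaling, median changes were 0.75 for all members, 0.73 for initiation factors, 0.60 for elongation factors (a turn in direction), 1.19 for cytosolic and 0.39 for mitochondrial synthetases. With 1 library left out they were 0.14 to 0.29, 0.09 to 0.27, -0.09 to 0.10, 0.50 to 0.99 and -0.13 to 0.09 in the same order. No paired design was found: the correlations of same-numbered libraries after removal of group means were -0.0129, -0.00475 and -0.0624, so the replicate block shares only a number.

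None of the changes listed here had passed the test. Among members named by the rule, those that turned direction without scaling were cars2 0.31, dars 0.47, eef1b2 0.61, eef1da 0.28, eef2k 0.42, eif1b 0.46, eif2d 0.22, eif3ea 0.40, eif3f 0.28, eif4ea 0.14, eif4ebp1 0.41, eif4ebp3 0.28 and eif5a 0.53. Of other genes in the text, eif2s3 (0.39), eif2ak1 (0.39), dhps (0.08), atf4b (0.29), psph (0.51) and pabpc1b (0.48) turned too. The change of eif2s1b was -0.04 with the total outside the mitochondrial genome and -0.06 with upper-quartile scaling, a setting added after the data were seen, and that of eif4g2b was -0.02 and -0.03. With 1 library left out, changes ranged over both signs for cars2 (-0.55 to 0.12), eef1b2 (-0.09 to 0.10), eef2k (-0.26 to 0.04), eif2s1b (-0.30 to 0.27), eif3ha (-0.02 to 0.42), eif4a1a (-0.09 to 0.35), eif4a1b (-0.02 to 0.23), eif4bb (-0.06 to 0.35), eif4ea (-0.58 to 0.01), eif4ebp1 (-0.48 to 0.07), eif4ebp3 (-0.47 to 0.07), eif4g2b (-0.20 to 0.30), eif4g3b (-0.08 to 1.13), eif5a (-0.40 to 0.11) and eif6 (-0.17 to 0.33). The causes were not tested. Trimmed mean scaling and pseudocounts of 0.1 and 0.5 left every count of members above as it was. Depth is not known from the deposited values, and single outlying libraries within groups of 3 were not tested for.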

Other observations

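Transcript length differed between the gene groups. The median length was 2449 bases for the tested cytosolic synthetases and 1290.9 bases for the tested eIF3 subunit genes other than those of eIF3j, against 1972.1 bases over all tested genes. The median log2 change of all tested genes was 0.04 below 1000 bases, 0.14 from 1000 to 1500, 0.11 from 1500 to 2000, 0.07 from 2000 to 3000, 0.01 from 3000 to 5000 and -0.12 above. The values of the synthetases and of eIF3 were not adjusted for length.

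Among genes too low to test, pars2, the mitochondrial prolyl enzyme, had 0.751, 0.706 and 0.725 FPKM in regenerating libraries and 0.294, 0.110 and 0.344 FPKM in uninjured libraries, without overlap. Such a pattern was seen in 19.1% of all tested genes, and the lowest of these values is near the floor for genes without reads. The authors' deposited table gave pars2 a mean normalised count of 4.45 (adjusted p 0.492). The mitochondrial tryptophanyl enzyme wars2 had 0.496, 0.875 and 0.260 FPKM in regenerating libraries and 1.42, 5.48 and 0.330 FPKM in uninjured libraries, where uninjured replicate 2 alone was high. These genes were chosen after their values were seen.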
